A study of Homo sapiens with 15 samples.

Results

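The collagen and laminin genes were followed through 15 RNA-seq libraries of breast cancer cell clones in which the RNA-binding protein RBM47 was switched on in steps. The count table held 55 genes with a collagen chain symbol (COL, digits, A, digits) or a laminin chain symbol (LAMA, LAMB or LAMC and 1 digit), 43 collagens and 12 laminins, among 23368 genes. A gene was taken as a member where its mean normalized count was at least 10 in at least 1 clone, so the members were chosen by the level of the same counts described here. This left 35 members, 25 collagens and 10 laminins, out of 14094 genes that passed the same minimum. At the edge, COL11A2 (highest clone mean 13.6), COL15A1 (13.99) and COL11A1 (19.7) lay just inside, and LAMB4 (7.08) and COL8A2 (3.48) just outside.

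Each clone was grown from a single sorted cell and carried a retroviral, FLAG-tagged RBM47 gene under doxycycline control: the wild type gene in WT6 and WT10, and the patient-derived truncating mutant RBM47-I281fs in MUT3. Doxycycline was given at 0 (untreated), 1, 2.5, 5 or 25 ng/ml. Every dose of every clone is a single library, and there were no replicate cultures. The sample labels name the MDA231 line for all 3 clones, whereas the methods of the study derive WT6 from CN34-BrM2 and WT10 and MUT3 from MDA231-BrM2, both of them brain metastatic breast cancer lines. A difference between clones therefore cannot be told apart from a difference between lines or from the choice of a single cell. The design asks which mRNAs follow the dose in the wild type clones, with MUT3 as the control for doxycycline and for the transgene's RNA. At 1, 2.5 and 5 ng/ml, however, MUT3 held less RBM47 mRNA than either wild type clone.

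Collagens are proteins of 3 chains wound into a triple helix. Fibrillar collagens form the ropes of connective tissue, collagen IV forms the sheet of the basement membrane beneath epithelia, and other members decorate fibrils, span the cell membrane or anchor the basement membrane to the tissue below. Laminins are cross-shaped trimers of an alpha, a beta and a gamma chain. They form the second basement membrane network, and cells bind them through integrins. Carcinoma cells secrete collagens and laminins of their own and must cross such networks when they invade.

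Collagen IV chains are encoded in pairs of genes that start next to each other on opposite strands, and the stretch between the starts of COL4A1 and COL4A2 is shown because the 2 mRNAs changed unequally. In the RefSeq start table (GRCh38.p14) 126 bases separate the start of COL4A1 on the minus strand from the start of COL4A2 on the plus strand, at chr13:110307158-110307283. They are written along the plus strand with the letters CCAAT in capitals.
COL4A1-COL4A2: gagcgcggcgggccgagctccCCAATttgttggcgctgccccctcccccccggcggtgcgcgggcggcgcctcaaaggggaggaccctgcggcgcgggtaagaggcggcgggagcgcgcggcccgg
This stretch was 80.2% G or C. CCAAT, the box bound by the factor NF-Y, was searched on both strands and matched 1 time on the plus strand and 0 times on the minus strand. Of 35116 windows of 126 bases just before a RefSeq start, 21.1% held it on either strand. The starts of COL4A4 and COL4A3 lie 418 bases apart and those of COL4A6 and COL4A5 lie 379 bases apart. Of the 35 members, 28 had a window in this table.

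LAMA3 and LAMB3 encode an alpha and a beta chain of epithelial attachment sites, and their start windows are shown because LAMB3 and LAMA3 moved apart with the dose. Each window runs from 250 bases before the RefSeq start over 50 bases from it, 5′ to 3′ on the gene's own strand, with the letters TGANTCA in capitals. TGANTCA is the core bound by AP-1 factors and reads the same on both strands. The LAMB3 window lies at chr1:209651325-209651624 on the minus strand and is 1 of 3 windows listed for that gene, of which the other two hold no match. The LAMA3 window lies at chr18:23872770-23873069 on the plus strand (both in GRCh38.p14). Which start of either gene these cells used was not tested.
LAMB3: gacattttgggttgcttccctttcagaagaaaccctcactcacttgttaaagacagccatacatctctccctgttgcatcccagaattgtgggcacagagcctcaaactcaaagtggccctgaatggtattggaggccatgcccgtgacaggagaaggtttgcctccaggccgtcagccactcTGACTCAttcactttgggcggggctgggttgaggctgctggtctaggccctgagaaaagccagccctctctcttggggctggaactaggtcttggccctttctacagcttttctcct
LAMA3: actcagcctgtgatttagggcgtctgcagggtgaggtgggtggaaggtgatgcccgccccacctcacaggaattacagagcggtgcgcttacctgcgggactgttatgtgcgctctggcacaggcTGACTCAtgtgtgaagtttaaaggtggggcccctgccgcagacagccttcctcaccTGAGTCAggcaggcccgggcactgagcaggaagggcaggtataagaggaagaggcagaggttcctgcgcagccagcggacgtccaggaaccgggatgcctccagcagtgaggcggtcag
Counted from the start, the match in LAMB3 begins at -67 and the 2 matches in LAMA3 begin at -125 and -69. Only these 2 of the 28 members with a window held TGANTCA, beside 9.37% of all 27305 genes with a window. A match of letters is a description of the window and not evidence of binding.

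Reads on genes ranged from 14955172 to 44771871 per library, and reads that fell on no annotated gene made up 56.5% to 59.6% of all reads tallied in the table. RBM47 mRNA was higher at 25 ng/ml than untreated in all clones, going from 168 to 19877 normalized counts in WT10 and from 73.8 to 22084 in MUT3. At 1, 2.5 and 5 ng/ml MUT3 held only 92.1, 336 and 949, against 827, 2822 and 8134 in WT10. In WT6 RBM47 mRNA went from 258 to 10425, but the 5 ng/ml library (3966) lay below the 2.5 ng/ml library (8094). The mesenchymal line markers VIM, CD44 and AXL were high in all libraries, and the summed level of this list of 5 ran from 79529 to 149422. Of the 6 luminal markers, CDH1, ESR1 and PGR reached at most 23.8 normalized counts, while KRT19 ran from 1061 to 3994, EPCAM from 136 to 456 and GATA3 from 65.4 to 213. The summed luminal level was 1893 to 4474 in WT6, 1736 to 2021 in WT10 and 1412 to 1561 in MUT3. Of the 6 fibroblast markers, COL3A1, LUM and FAP reached at most 2.07 normalized counts in any library, PDGFRA at most 6.29, PDGFRB at most 24.9, and decorin (DCN) 189.6 to 735 in WT6 and at most 1.08 in the other clones. Of the 5 endothelial markers, CDH5 reached at most 1.08, but KDR ran from 20.4 to 49.3 in WT6, 112 to 145 in WT10 and 325 to 375 in MUT3. Of the leukocyte markers, CD3E was at 0 in every library and CD14 ran from 15.5 to 73.5. The part of these mRNAs in the results was not tested. In bulk RNA, fewer cells making an mRNA and less of it per cell cannot be told apart.

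Per kb of transcript, the highest member was LAMB3, a laminin beta chain, with a mean of 4438 normalized counts per kb over the 15 libraries (1364 in WT6, 8283 in WT10 and 3669 in MUT3). COL8A1, a short-chain collagen of hexagonal lattices, followed at 1128 per kb, and LAMB2, the beta chain of many adult basement membranes, at 1070.5 per kb. Further down came COL13A1 (895 per kb), a collagen that spans the cell membrane, LAMC1 (583), the gamma chain shared by most laminins, LAMA5 (425) and COL6A2 (305). The fibrillar collagen COL1A1 stood at 45.8 per kb, and COL1A2, which encodes the partner chain of type I collagen, was no member, with a highest clone mean of 0.863 normalized counts. The members together took 0.197% to 0.606% of the reads on genes.

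**Figure D1:**
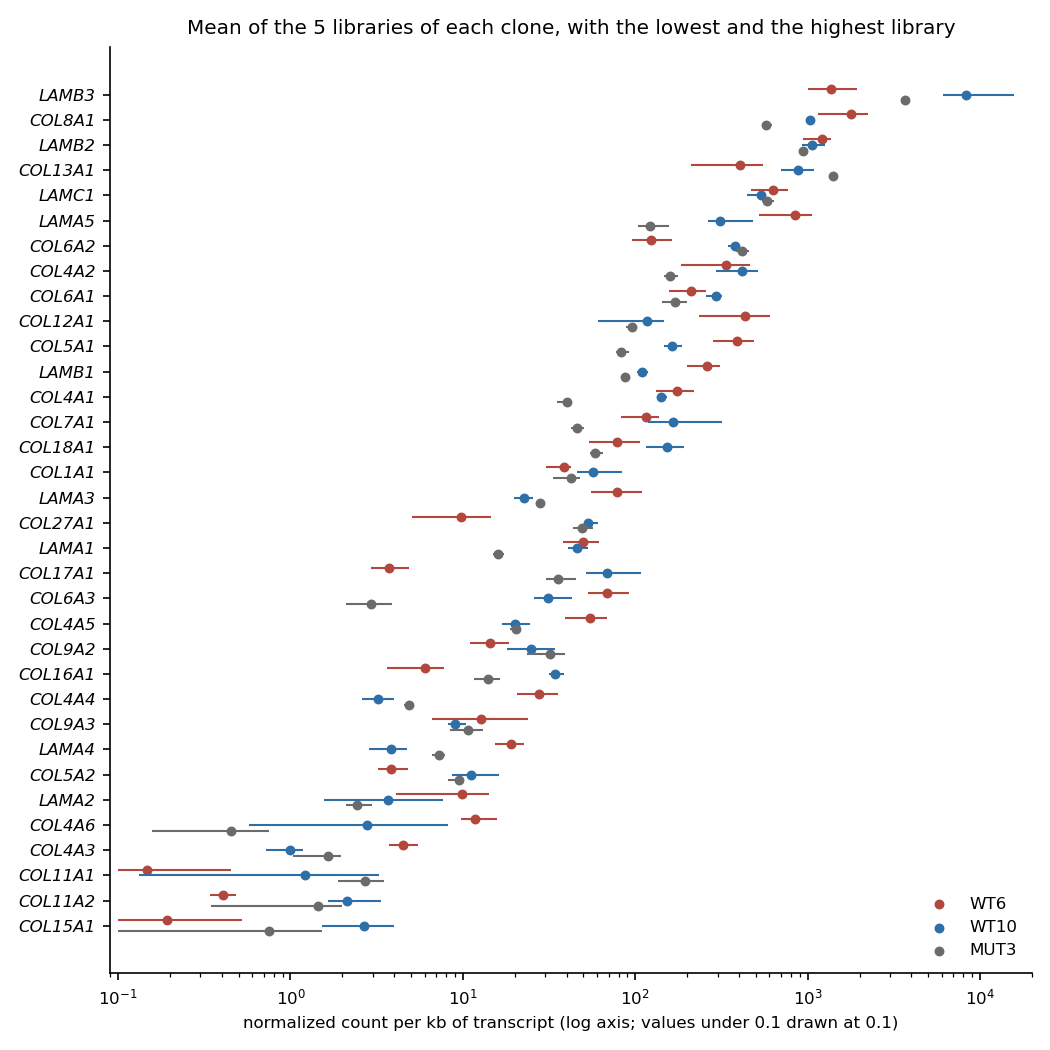
Level of 34 of the 35 members by clone, in normalized counts per kb of transcript on a log axis. Points are the mean of the 5 libraries of a clone and bars run from the lowest to the highest of them. LAMB3 led at 8283 per kb in WT10, and COL6A3 ranged from 2.92 in MUT3 to 68.3 in WT6.

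The clones shared most chains, with 30 of the 35 members above the minimum in all 3, and differed in their levels. All 5 WT6 libraries lay above all 5 WT10 libraries for 12 of the 35 members and below them for 12, where 23.1% and 23.6% of the 14094 genes did. Against MUT3, WT6 lay wholly above for 17 members and wholly below for 9, with 27.0% and 27.4% of genes as the background. WT10 lay wholly above MUT3, which the methods derive from the same line, for 16 members and wholly below for 4, with 17.0% and 19.7% of genes as the background. These counts describe the members and were not tested, since the clone means chose them.

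WT6 stood above both other clones in every library for 12 members, among them COL12A1, a fibril-associated collagen (clone mean 5081, against 1379.6 in WT10 and 1122 in MUT3), COL5A1, which nucleates collagen fibrils (3272, 1374 and 700.3), and LAMA5 (9609, 3552 and 1399). COL4A4 (275, 32.1 and 48.7) and LAMA4 (137, 27.8 and 52.7) were further examples. WT6 stood below both for 7 members, among them LAMB3 (5475, 33247 and 14726), COL17A1, the hemidesmosomal collagen (20.8, 383 and 201), and COL27A1 (76.0, 417 and 381). COL6A3, the long chain of collagen VI microfibrils, was low in MUT3 (22.2 to 40.9 over its 5 libraries) and higher in WT10 (272 to 449.7) and WT6 (557 to 963), while COL6A1 and COL6A2 stayed between 602 and 1579 in both WT10 and MUT3. Of the fibroblast markers, DCN was high in WT6 alone, but the rest of that list did not set WT6 apart. PDGFRB ran from 5.45 to 24.9 in WT6 and from 9.64 to 23.8 in WT10. COL3A1, LUM, FAP and PDGFRA reached at most 6.29 in any library. The part of DCN in these levels was not tested.

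The dose response was taken as a slope for each clone: the log2 change of a gene per unit of log2(dose in ng/ml + 1), fitted with limma to all 15 libraries on the 12644 genes with a mean of at least 10 normalized counts in every clone. From 0 to 25 ng/ml is 4.70 such units. Of the members, 30 entered this fit and 5 (COL11A1, COL11A2, COL15A1, COL4A3 and COL4A6) did not. A slope was called where the Benjamini-Hochberg adjusted p over all genes was below 0.05. The error is the scatter of single libraries around 3 straight lines and holds no repeat culture.

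In WT6 the slope fell for 14 of the 30 members and rose for 5, where 28.3% of genes fell and 29.2% rose. The share of members that fell was 46.7%. In WT10 it fell for 4 members and rose for 8, where 9.83% of genes fell and 10.2% rose, so 26.7% of the members rose. In MUT3 limma called 0 of the 30 members and 0% of the genes. At an unadjusted limma p below 0.05 there was 1, and edgeR and DESeq2 also called 0 members in MUT3. By family, 9 of 20 collagens and 5 of 10 laminins fell in WT6, and 3 and 2 rose. In WT10, 4 collagens fell and 5 rose, while 0 laminins fell and 3 rose, with an unadjusted p below 0.05 for 1 laminin with a negative slope (LAMC1, adjusted p = 0.0739).

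The changes in WT6 went with transcript length. The members' transcripts had a median length of 6531 bases (2497 to 11725), against 3278 bases over the genes that passed the minimum, and 17 of the 30 tested members lay in the longest 20% of genes (5803 bases or more). At 5 ng/ml in WT6, the median log2 change from the untreated library was 0.60 in the shortest 20% of genes, -0.42 in the longest 20% and -0.49 over the members, of which 22 were lower and 8 higher. At 25 ng/ml these medians were 0.58, -0.46 and -0.38. In the longest 20%, 54.6% of all genes fell in WT6, and 9 of the 17 members there did (52.9%). At 1 ng/ml the medians of the longest and shortest 20% in WT6 stood at -0.05 and 0.03, and in WT10 at 25 ng/ml at -0.08 and 0.06.

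A second fit therefore used values from which smooth trends on transcript length and GC content had been taken out of each library. In WT6, 10 members then fell and 5 rose, where 31.5% and 27.0% of 12156 genes did, so that the share of members falling (33.3%) was close to that of all genes. In WT10, 5 members fell and 12 rose, with 20.6% and 15.5% of genes as the background, and 40.0% of the members rose. In WT6, 4 members lost their fall, COL4A1, COL4A4 and LAMA4 among them, COL9A3 lost its rise, and LAMA1 gained one. In WT10, LAMA1, LAMA5, LAMB1 and LAMB2 gained a rise and LAMC1 a fall. Of the 19 WT6 calls on the values as deposited, 9 held with each library left out in turn. COL16A1, COL4A4, COL6A3 and LAMA4 lost theirs without the untreated or the 25 ng/ml library of WT6, COL9A3 without the untreated or the 1 ng/ml library, COL27A1 without the untreated library, and COL4A1, LAMB1 and LAMB3 without the 25 ng/ml library. Slopes from the second fit are called adjusted for length, and the others are from the values as deposited.

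A fall in both wild type clones was called for 4 members, COL12A1, COL13A1, COL18A1 and COL4A2, where 7.34% of genes fell in both, and a rise in both for 3, COL6A3, LAMA2 and LAMB3, where 7.02% did. With length adjusted the counts were 5 (LAMC1 added, background 16.0%) and 4 (LAMA1 added, background 11.1%). Each of these 7 genes kept its direction and its call in both clones in the second fit. The WT10 call of each of them needs the 25 ng/ml library: without it, limma called 0 members in WT10 in either direction, with 4 falling and 1 rising at an unadjusted p below 0.05, and 6 genes of 12644.

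Collagen IV is the network collagen of basement membranes. COL4A2 (chr13:110958159-111165556, plus strand, hg19) fell at each step in WT6, with 2978 normalized counts untreated and 2758, 2354, 1541 and 1185 at 1, 2.5, 5 and 25 ng/ml. In WT10 the same libraries gave 3297, 3113, 2765, 2366 and 1900.3, again each below the one before. MUT3 held 942 to 1145 with no order by dose. The slopes were -0.31 ± 0.03 (SE) in WT6 (limma, adjusted p = 8.85e-06) and -0.18 ± 0.03 in WT10 (adjusted p = 0.00179), and the difference of their mean from the MUT3 slope was -0.29 ± 0.04 (adjusted p = 0.000779).

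COL4A1, on the other strand at chr13:110801310-110959504, encodes the chain that winds together with the COL4A2 product. It gave 1289.9, 1227, 1428, 922 and 864 in WT6 and 1001, 882, 892, 875 and 986 in WT10. Its slope was -0.14 ± 0.04 in WT6 (limma, adjusted p = 0.00792), -0.06 ± 0.03 with length adjusted (adjusted p = 0.126), and 0.00 ± 0.04 in WT10. The ratio of COL4A2 to COL4A1 counts went from 2.31 to 1.37 in WT6 and from 3.30 to 1.93 in WT10 between the untreated and the 25 ng/ml library, while in MUT3 it ran between 3.37 and 4.99 in no order of dose. The ratio itself was not tested. The 2 genes overlap on opposite strands in the annotation, and whether the libraries keep the strand is not given in the sources used here.

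The other collagen IV chains had lower means than COL4A1 and COL4A2 within each clone, the highest being 355 for COL4A5 in WT6. COL4A4 fell in WT6 as deposited (-0.13 ± 0.05, limma, adjusted p = 0.0327) and was at -0.02 ± 0.03 with length adjusted. COL4A5 was not called in any clone, and COL4A3 passed the minimum in WT6 and MUT3 only. COL4A6, whose product joins COL4A5 chains in smooth muscle and epidermal membranes, had 3.86 to 12.3 normalized counts in the first 4 libraries of WT10 and 54.9 at 25 ng/ml, from 9, 4, 12, 31 and 53 reads in dose order, so that a single library stood apart. The same library raised the WT10 mean (18.6) that admitted COL4A6 to a fit of WT10 alone. Its slope there, 0.71 ± 0.12 per unit, therefore describes that library and is given without a p-value. In that fit 9 of 33 members were called as rising, where 14.3% of genes were. COL4A6 is among these 9 and entered through the library in which it is high. The count is therefore a description and no support for a rise of the members. In WT6 COL4A6 ran from 65.4 to 106.

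COL18A1, a basement membrane collagen whose C-terminal fragment is endostatin, gave 523, 579, 413, 290.2 and 301 in WT6 and 1039, 939, 767, 754 and 627 in WT10. MUT3 held 296 to 350.2, and the 5 WT10 libraries all lay above those of WT6. The slopes were -0.22 ± 0.05 in WT6 (limma, adjusted p = 0.00133) and -0.16 ± 0.04 in WT10 (adjusted p = 0.0154). SLC19A1 and antisense genes overlap COL18A1, and their part in its reads was not tested.

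COL12A1, which coats collagen I fibrils, fell in both wild type clones. It gave 7054, 5984, 6106, 3508 and 2754 in WT6 and 1655, 1716, 1526, 1286 and 715 in WT10, while MUT3 stayed between 1041 and 1179. The WT10 library at 25 ng/ml is the only library of that clone below the MUT3 range. Its slope was -0.31 ± 0.04 in WT6 (limma, adjusted p = 4.8e-05) and -0.27 ± 0.05 in WT10 (adjusted p = 0.00128). With length adjusted they were -0.19 ± 0.02 and -0.24 ± 0.03, and both stayed called. At 11725 bases COL12A1 is the longest member.

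COL13A1, the transmembrane collagen of cell contacts and the neuromuscular junction, is among the shorter members at 3148 bases and changed little when length was adjusted (-0.30 to -0.31 in WT6). It gave 1730.5, 1574, 1344, 1061 and 664 in WT6, and 3407, 3154, 2596, 2389 and 2193 in WT10, falling at each step in both. MUT3 held 4189.9 to 4714. The slope was -0.30 ± 0.03 in WT6 (limma, adjusted p = 4.48e-06) and -0.14 ± 0.03 in WT10 (adjusted p = 0.00213), a difference of -0.16 ± 0.04 between the clones (adjusted p = 0.0229).

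**Figure D2:**
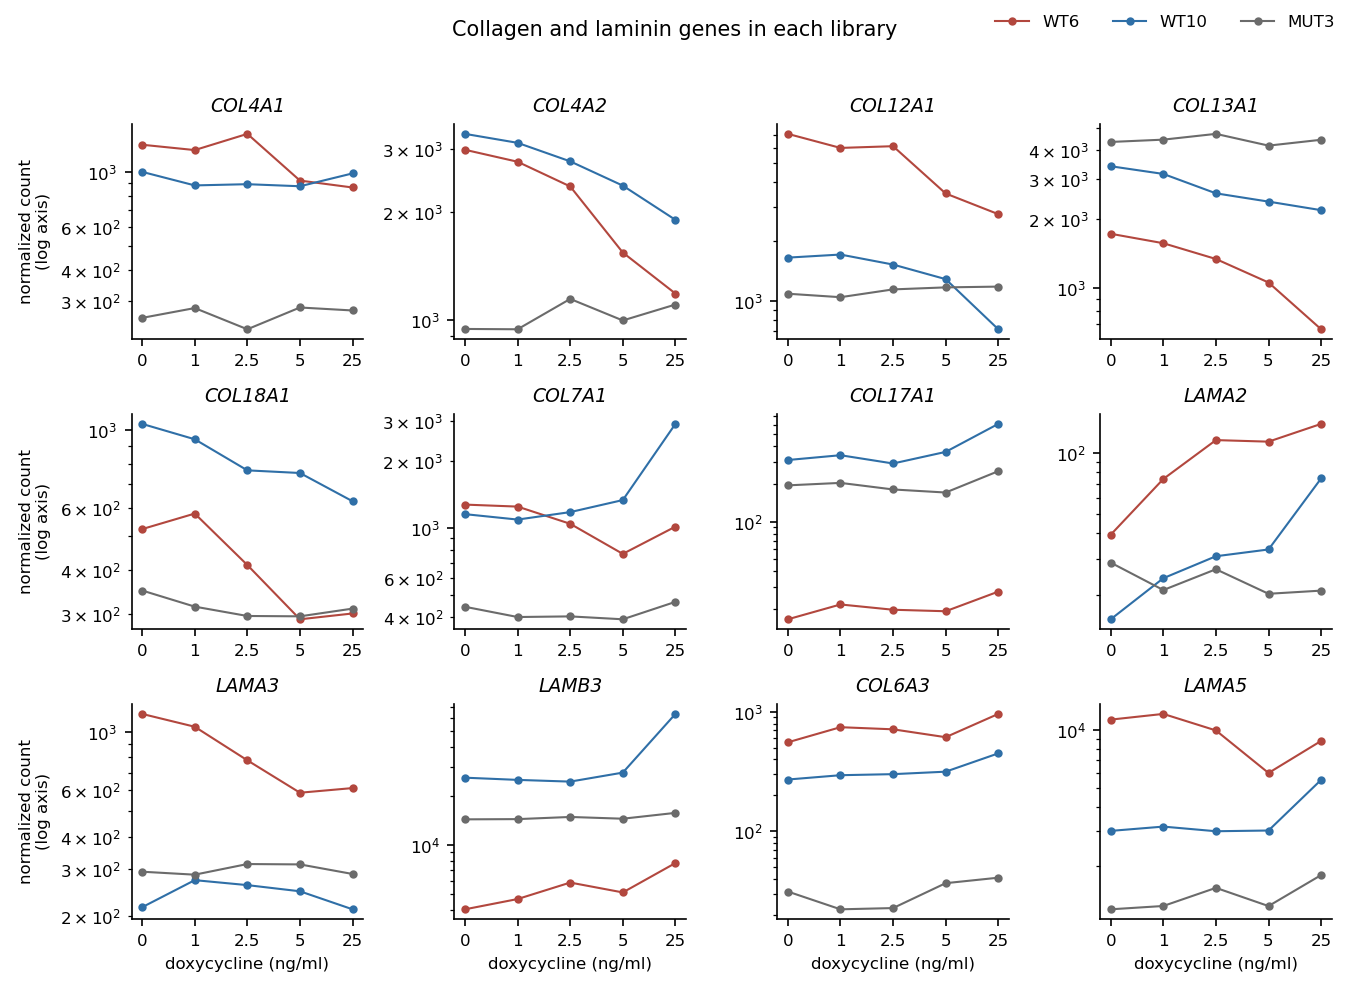
Normalized count of 12 members in each library, on a log axis, against doxycycline dose in evenly spaced steps; 1 point per library and no error bar, since each is a single library. COL4A2 and COL13A1 step down in WT6 and WT10, LAMB3 and COL7A1 stand apart at 25 ng/ml in WT10, and MUT3 runs flat in most panels.

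Collagens that attach epithelia to their base rose in WT10. COL7A1, the collagen of anchoring fibrils, gave 1154, 1092, 1179, 1334 and 2921, and COL17A1, which anchors keratin filaments through hemidesmosomes, gave 312, 340.4, 292, 362 and 607. In both genes the first 4 libraries lay close together and the 25 ng/ml library stood apart, at 2.53 and 1.95 times the untreated library. The slopes were 0.31 ± 0.05 (limma, adjusted p = 0.00147) and 0.21 ± 0.04 (adjusted p = 0.0041). In WT6 neither was called: COL7A1 gave 1273, 1248, 1045, 767 and 1015 and COL17A1 16.4 to 27.4. The WT6 slope of COL7A1 lay below that of WT10, with a difference of -0.41 ± 0.08 (adjusted p = 0.0126).

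Among fibrillar collagens, COL5A1 fell in WT6 from 4113 and 4022 to 3449, 2379 and 2395 (slope -0.19 ± 0.04, limma, adjusted p = 0.000424), and COL27A1 from 114 to 52.3 with 39.5 at 5 ng/ml (slope -0.29 ± 0.08). COL5A2, the partner chain of COL5A1, was not called in WT6. It gave 21.9 to 32.7 there and rose in WT10, where the first 4 libraries held 58.8 to 73.3 and the last 111 (0.17 ± 0.05, adjusted p = 0.0369). COL1A1 gave 299.7, 302, 272, 309 and 493 in WT10 (0.16 ± 0.05, adjusted p = 0.0321). Without the 25 ng/ml library the COL1A1 slope there was -0.0038.

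COL8A1 fell in WT6, with 12330.2, 11474 and 11915 up to 2.5 ng/ml and 6357 and 6984 above it (slope -0.21 ± 0.05, limma, adjusted p = 0.0016). It ran from 5423 to 6105 in WT10, and the 2 slopes differed by -0.24 ± 0.06 (adjusted p = 0.0296). Of the collagen VI chains, COL6A3 rose in WT6 (557, 745, 715, 614 and 963) and in WT10 (272, 295, 301, 316 and 449.7), whereas COL6A1 and COL6A2 were called in neither. In MUT3, where the gene had 20 to 40 reads a library, the slope was 0.14 ± 0.10, and the wild type mean differed from it by 0.00 ± 0.10 (95% interval -0.22 to 0.22, adjusted p = 0.994). The fibril-associated members COL16A1 (19.7 to 42.4, higher at each step) and COL9A3 (16.4, 20.6, 22.2, 59.9 and 39.9) rose in WT6 from low counts, with adjusted p of 0.0298 and 0.0236.

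LAMA2, the alpha chain of muscle and nerve basement membranes, had the steepest rise of the 30 tested members in both wild type clones. It gave 39.5, 74.1, 115, 113 and 138 normalized counts in WT6 and 15.1, 24.1, 30.9, 33.4 and 74.6 in WT10, against 20.2 to 28.8 in MUT3. The untreated WT6 library is the lowest of that clone and every treated one lies at least 1.88 times above it. The slopes were 0.30 ± 0.06 (limma, adjusted p = 0.00085) and 0.45 ± 0.09 (adjusted p = 0.0022), and their mean exceeded MUT3 by 0.46 ± 0.12 (adjusted p = 0.0124). The counts are small, with 14 to 135 reads per wild type library.

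The chains LAMB3 and LAMA3 moved apart in WT6. LAMB3 (chr1:209788215-209825770, minus strand, hg19) gave 4023, 4651, 5868, 5105 and 7728 in WT6 and 25777, 24987, 24388, 27691 and 63392 in WT10. The WT6 values climb with the dose except at 5 ng/ml, and in WT10 the rise lies in the 25 ng/ml library alone. MUT3 held 14319 to 15689. The slopes were 0.19 ± 0.05 in WT6 (limma, adjusted p = 0.00429) and 0.28 ± 0.05 in WT10 (adjusted p = 0.0018).

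LAMA3 (chr18:21269417-21536186, plus strand, hg19) fell in WT6 with 1172, 1047, 780.1, 587 and 612 (slope -0.23 ± 0.04, limma, adjusted p = 0.000576) and stayed at 211 to 273 in WT10, whose untreated library (215) and 25 ng/ml library (211) are its lowest. The ratio of LAMB3 to LAMA3 counts went from 3.43 to 12.6 in WT6 and from 119.7 to 299.9 in WT10 between the untreated library and 25 ng/ml, with 91.5 to 111.9 at the doses between, and it lay between 46.1 and 54.5 in MUT3. These ratios compare libraries within a gene pair and carry no test.

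LAMA5, the widest-spread adult alpha chain, gave 3018, 3176, 3006, 3032 and 5527 in WT10 and 11284, 12073, 9926, 5996 and 8767 in WT6, and 1192 untreated and 1788 at 25 ng/ml in MUT3. Its log2 change at 25 ng/ml from the untreated library was 0.87 in WT10, 0.59 in MUT3 and -0.36 in WT6. Neither slope was called as deposited (adjusted p = 0.0551 in WT10 and 0.117 in WT6, limma), while their difference of -0.30 ± 0.09 was (adjusted p = 0.0399). That call was kept in 4 of the 15 fits that each left out 1 library, with a difference from -0.52 to -0.12. ADRM1 overlaps LAMA5 on the other strand. LAMA1, the early embryonic alpha chain, gave 368 to 595 in WT6 and 391 to 512 in WT10, and its rise was called in both only with length adjusted (0.19 ± 0.03 and 0.12 ± 0.03). LAMA4 fell in WT6 from 164 to 111 as deposited.

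Of the widely used chains, LAMC1 fell in WT6 from 6113, 5682 and 5636 to 3863 and 3742 (slope -0.17 ± 0.03, limma, adjusted p = 0.000377). It gave 4459, 4530.0, 4539.9, 4145 and 3505 in WT10 and was higher at each step in MUT3, from 4323 to 5041, with no call. LAMB1 fell in WT6 from 1588, 1743 and 1701 to 1234 and 1119.9 and ran from 579 to 668 in WT10, each library above the one before, with a difference of -0.18 ± 0.05 between the clones (adjusted p = 0.0257). LAMB2 (5288 to 7813 in the wild type clones) was called in neither as deposited. The summed laminin counts of WT10 were 41981 to 45164 in the first 4 libraries and 86503 at 25 ng/ml, of which LAMB3 alone made 63392. The summed collagen counts of WT6 went from 34522 untreated to 19956 at 25 ng/ml.

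The WT6 and WT10 slopes averaged below the MUT3 slope for 5 members, where 14.6% of genes did, and above it for 2, where 10.1% did. Those below were COL12A1 (-0.32 ± 0.06), COL4A2, COL13A1 (-0.22 ± 0.03), COL5A1 (-0.17 ± 0.05) and LAMC1 (-0.17 ± 0.04), and those above LAMA2 and LAMB3 (0.21 ± 0.06), with adjusted p from 0.000779 to 0.0245 by limma. All 7 calls were lost when the 25 ng/ml library of MUT3 was left out (0 members and 3 genes of 12644 called, 7 members at an unadjusted p below 0.05), and those of LAMA2 and LAMB3 also without the 25 ng/ml library of WT10. The slope of WT6 lay below that of WT10 for 6 members (among them COL13A1, COL7A1, COL8A1, LAMA5 and LAMB1), where 7.09% of genes did, and above it for 0, where 7.28% did. At an unadjusted p below 0.05 limma gave 14 and 0, for which the share over all genes is not given here. With edgeR 6 members were called below and 0 above, where 764 and 970 of 12644 genes were. With DESeq2 the members were 8 and 0, and the genes 1201 and 1232 of 12398. Without the 25 ng/ml library of WT10, 1 member was called, and none of the 5 named. Over all 12644 genes that fit still called 997 below and 974 above.

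Genes that make, process, partner or bind these proteins were taken from 4 lists, whose counts stand beside 28.3% of all genes falling and 29.2% rising in WT6, and 9.83% and 10.2% in WT10. With length adjusted the shares of all genes were 31.5% and 27.0%, and 20.6% and 15.5%. The WT10 falls named here all need its 25 ng/ml library, without which limma called 0 of the 12644 genes as falling there. That fit called 6 genes as rising in WT10, and whether the rises named here are among them is not given. Of 17 tested collagen-modifying enzymes and chaperones, 3 fell and 2 rose in WT6, and 3 fell and 2 rose in WT10. With length adjusted 8 fell and 2 rose in WT6, and 5 fell and 4 rose in WT10. P4HA2, a prolyl hydroxylase subunit, rose in both (1784 to 2864 and 764 to 1440.3 between untreated and 25 ng/ml). P4HA2 also went from 278 to 409 in MUT3, with no call (slope 0.11 ± 0.05, against 0.13 ± 0.03 in WT6). GLT25D1, which adds galactose to collagen lysines, fell in both wild type clones (9095 to 5827 and 8693 to 5690). Of 10 processing and cross-linking genes, 4 fell and 3 rose in WT6 and 2 of each in WT10, and with length adjusted 3 of each and 2 of each. The lysyl oxidase homologues LOXL1 and LOXL2 fell in both, LOXL2 from 5919 to 3505 in WT6 and from 10219 to 7221 in WT10 (limma, adjusted p = 0.0194 in WT10).

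Of 8 other basement membrane components, 3 fell and 3 rose in WT6, and 1 fell and 3 rose in WT10. With length adjusted 4 of each moved in WT6, and 1 fell and 4 rose in WT10. FBLN1, a fibulin, rose in both (163 to 379.9 and 67.1 to 275), as did NTN4, a laminin-related netrin (300.3 to 859.5 and 408 to 932). NTN4 also went from 204 to 358 in MUT3, with no call. FREM2, which links the basement membrane to the tissue below, fell in both wild type clones from low counts (42.7 to 9.97 and 73.6 to 35.2). FREM2 also went from 47.5 to 29.3 in MUT3, with no call. Of 14 receptors for collagens and laminins, 8 fell in WT6 and 8 in WT10, the same 8 genes, where 7.34% of all genes fell in both, and 3 and 2 rose. With length adjusted 8 fell in each clone, and 2 rose in WT6 and 4 in WT10. ITGB1, the beta subunit shared by the collagen and most laminin integrins, went from 8971 to 2748 in WT6 and from 11915 to 6973 in WT10 (slopes -0.41 ± 0.05 and -0.18 ± 0.05, limma, adjusted p = 0.0322 in WT10). ITGA10, a collagen-binding alpha subunit, went from 506 to 249 and from 83.3 to 25.9. DDR1, a collagen-binding tyrosine kinase, rose in both (151 to 455 and 561 to 1237).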

How the data were processed

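PolyA-selected RNA of 15 libraries (3 clones, 5 doxycycline doses) had been read in pairs, mapped by the authors to hg19 with STAR and counted per gene with HTSeq 0.5.4. The deposited signal is the count normalized to library size with DESeq by the authors, written here as the normalized count. Every value was a whole multiple of the worth of 1 read (100% within 0.01 reads), which gave the reads used for depth, edgeR and DESeq2. The 5 tallies that name no gene were left out. The gene annotation and the strand setting were not given in the sources used here.

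Members and gene lists were chosen with earlier results of these data known. Log2(normalized count + 1) of the 12644 genes with a mean of at least 10 in each clone was fitted with limma 3.58.1 in R 4.3.3 (vooma weights), with a line on log2(dose + 1) per clone and 9 residual degrees of freedom. Adjusted p-values are Benjamini-Hochberg over all genes. Each dose of a clone is 1 library, so p-values measure scatter around the lines and not between cultures. Length and GC content are those of the canonical transcript (GENCODE release 44 on GRCh37, 92.3% of genes), and their trends were splines with 4 degrees of freedom. Members were named if called in WT6, in WT10 or against MUT3, if among the 8 highest per kb, or if removing the trends changed the WT6 call. Up to 3 genes of each partner list were named, with the largest mean slope among those called with 1 sign in both wild type clones. Alternatives were other scalings, minimums, pseudocounts, weights, tests (edgeR 4.0.16, DESeq2 1.42.0), dose scales and left-out libraries. The results of 1 member and 1 marker are not reported here, and the member stays in the counts.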

Additional observations from a re-analysis of the deposited data

Results flagged for a closer look

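For the 12 slopes given here the difference between clones was itself called by limma. The mean wild type slope minus that of MUT3 was -0.32 for COL12A1, -0.22 for COL13A1, -0.29 for COL4A2, -0.17 for COL5A1 and -0.17 for LAMC1, and 0.46 for LAMA2 and 0.21 for LAMB3. The WT6 slope minus that of WT10 was -0.16 for COL13A1, -0.41 for COL7A1, -0.24 for COL8A1, -0.30 for LAMA5 and -0.18 for LAMB1. With each of the 15 libraries left out in turn, the call against MUT3 was kept in 11 (LAMB3) to 14 fits. The call between WT6 and WT10 was kept in 14 fits for COL7A1, 12 for COL13A1 and LAMB1, 10 for COL8A1 and 4 for LAMA5, whose difference ran from -0.52 to -0.12. WT6, WT10 and MUT3 are each a single-cell clone. A difference between WT6 and WT10, which carry the same transgene, cannot be told apart from the clone or, by the methods, the source line. A difference from MUT3 cannot be told apart from the clone or, for WT6, the source line.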

How the results depend on the processing

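Leaving out 1 library at a time gave 10 to 15 falling and 2 to 7 rising members in WT6, 0 to 5 and 0 to 9 in WT10, 0 to 0 in MUT3, 0 to 11 against MUT3 and 1 to 10 between WT6 and WT10. The counts of 0 came without the 25 ng/ml library of WT10 (both directions in WT10) or of MUT3 (against MUT3). Over all 12644 genes, the first of these fits gave 0 falls and 6 rises in WT10. The second gave 1 gene below and 2 above MUT3. Without the WT6 untreated library 10 members fell and 2 rose in WT6, and without its 25 ng/ml library 14 and 2. Shares over all genes are not given for the other fits, so their member counts do not set the members apart. The COL1A1 slope in WT10 ranged from -0.0038 to 0.224 with 1 library left out, and was -0.0038 without that at 25 ng/ml of WT10 or of all clones.

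Without all 25 ng/ml libraries limma gave 15 falls and 3 rises in WT6. In WT10 there were 0 falls and 0 rises (5 and 2 at an unadjusted p below 0.05). There were 0 differences from MUT3 (8 below and 1 above unadjusted) and 0 between WT6 and WT10 (8 and 2). Over all 12644 genes that fit gave 2272 falls and 2416 rises in WT6, and 3 and 14 in WT10. Against MUT3 it gave 0 genes below and 1 above, and between WT6 and WT10 0 and 7. Without the libraries at 5 and 25 ng/ml there were 5 falls in WT6, and 2 falls and 1 rise in WT10. There were 2 differences from MUT3 and 1 between the wild type clones, and the shares over all genes are not given here. Slopes turned to 0.0766 (COL4A1), 0.0509 (COL4A4) and 0.0574 (LAMB1) in WT6. In WT10 they turned to -0.0425 (COL17A1), -0.0716 (COL1A1), -0.0640 (COL5A2) and -0.0442 (LAMB3). With log2 RBM47 in place of the dose there were 0 falls and 0 rises in WT6 (7 and 5 unadjusted). WT10 had 0 and 1 (4 and 6). There were 0 differences from MUT3 (5 and 3) and 0 between the wild type clones (4 and 0). Few genes of any kind were called in that fit. Of 12643 genes, 0 fell and 1 rose in WT6, 13 fell and 75 rose in WT10, and 0 differed in either comparison.

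Removing the length trend alone left 9 falls in WT6. A minimum of 50 left 1 rise in WT6 and 4 in WT10, no precision weights 5 rises in WT10, and the rank of the dose 5 there. Fitting each clone alone gave 8 falls and 2 rises in WT6 and 3 calls in MUT3 (rises of COL6A1 and LAMA5 among them), and with the trends removed as well, chosen after seeing the data, 9 falls in WT6, 13 rises in WT10 and 4 calls in MUT3. TMM scaling kept 31 of 31 member calls, edgeR 30 and DESeq2 28. Each clone fitted alone kept 21, and leaving out the 25 ng/ml library of WT10 kept 19. Without all libraries at 25 ng/ml 13 were kept, and without those at 5 and 25 ng/ml 10. With log2 RBM47 in place of the dose 1 was kept. Shares over all genes are not given beside the member counts of this paragraph, so these do not set the members apart. The causes were not tested. The clones share the same 5 doses, with 1 library per clone and dose, and no analysis paired by dose was run. Depth limits the members under 100 reads.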
